A study of Mus musculus with 135 samples.

Results

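The hypoxia response genes described here were Vegfa, Slc2a1, Bnip3, Adm, Egln1, Egln3, Hif1a, Epas1, Hif3a and Pdk1. They were taken by symbol from the count tables, as 10 of the 55416 genes listed in each table, and all 10 passed the filter on low counts in every comparison. The study used adult male Townes humanized mice, in which human globin genes stand in place of the mouse ones. SS mice carried sickle hemoglobin and AA mice carried normal adult human hemoglobin, and poly(A) RNA from the cortex and the hippocampus was sequenced separately, with each library made from 1 mouse. In repeat social defeat (RSD), a male aggressor was put into the home cage every day, and minocycline, an antibiotic that also dampens microglial activation, was given in the drinking water from before the first RSD session until the last. All mice also went through behavioral testing before the tissue was taken.

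The libraries used fell into 8 groups. In the cortex there were 12 AA mice, 2 AA + RSD mice, 1 AA + minocycline mouse, 18 AA + RSD + minocycline mice, 8 SS mice, 6 SS + RSD mice, 4 SS + minocycline mice and 14 SS + RSD + minocycline mice. The hippocampus had 11 AA and 7 SS mice, and the other groups were as large as in the cortex. AA and SS without a suffix were neither stressed nor treated, and are called control mice below. Between 16295042 and 107713193 reads per cortex library were counted in genes (median 33848502), and between 12869149 and 68731008 per hippocampus library (median 36523234). Levels are given as CPM, the count of a gene scaled to the reads counted in all genes of its library.

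Several libraries stood apart. Prox1, a transcription factor of dentate granule neurons, was at 87.6 CPM in the cortex library of AA + RSD mouse 9674 and at 16.04 CPM in its hippocampus library. All cortex libraries used lay between 6.67 and 23.8 CPM and all hippocampus libraries used between 45.3 and 175 CPM, so the labels of this mouse went against the tissue and it was left out. Libraries of mouse 9887 (SS + minocycline) and mouse 9877 (AA + RSD + minocycline) held identical counts, and both were left out. Alas2, the erythroid enzyme of heme synthesis, was at 54.02 to 180 CPM in the cortex and 39.3 to 188 CPM in the hippocampus of SS libraries of any treatment, against 2.91 to 20.6 CPM and 2.09 to 15.7 CPM in AA libraries, the 4 mice named next left out of both. Across from their genotype's range were AA mouse 5844 (95.9 CPM in the cortex, 55.5 CPM in the hippocampus), AA + RSD + minocycline mouse 5853 (51.9 and 46.2 CPM) and SS + RSD + minocycline mouse 7078 (6.47 and 3.47 CPM). AA mouse 9631 had mouse beta-globin Hbb-bs at 37.03 and 31.34 CPM, while the other libraries had at most 0.224 and 0.233 CPM, and its Alas2 was at 2.61 and 1.70 CPM, below the other AA libraries. These 4 mice were kept under their labels, and values without them are given where they change a call or a size. The cortex library of AA + RSD + minocycline mouse 9851 had 32.02 CPM of Slc2a1, against 84.8 CPM in the next lowest library of its group. Its Epas1, at 74.1 CPM, was also the lowest of the group, where the median was 150 CPM. This library was treated in the same way. Mouse numbers in the labels fell into 6 blocks with gaps between them, which were joined in pairs as number series A (5349 to 5400 and 9615 to 9674), B (5645 to 5900 and 9810 to 9910) and C (7037 to 7121 and 10633 to 10639). The labels do not say what the blocks stand for, and joining them in this way was a choice. By its methods the study tested minocycline in a second cohort of mice, which the labels do not mark. All AA + RSD and SS + RSD mice were in series A, all mice given RSD and minocycline were in series B or C, and the control mice were in A and B.

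Cells sense oxygen through hypoxia-inducible factors (HIFs). An oxygen-labile alpha subunit (Hif1a, Epas1 or Hif3a) is hydroxylated by prolyl hydroxylases such as Egln1 and Egln3 when oxygen is present, bound by the von Hippel-Lindau protein and degraded; when oxygen is low it escapes, pairs with ARNT and switches on genes for vessel growth, glucose uptake, altered mitochondrial metabolism and mitophagy. The alpha subunits are controlled mainly as proteins, which RNA counts do not measure. In the brain, Epas1 and Slc2a1 are prominent in endothelial cells, and Vegfa is made by astrocytes and neurons.

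HIF dimers bind a short core, ACGTG or GCGTG, read on either strand. The 250 bases before the start site, from RefSeq on GRCm38.p6, were searched for these letters in the 9 members with an entry. Epas1 was not among them. The genes that passed a test between groups with all mice in the model, Adm, Slc2a1, Vegfa (with its upstream and its downstream start) and Hif3a, are given with Bnip3, which held the most matches, for comparison. Each is written 5′ to 3′ on the strand of the gene, with the matches to the core in capitals.
Adm, chr7:110627407-110627656, plus strand: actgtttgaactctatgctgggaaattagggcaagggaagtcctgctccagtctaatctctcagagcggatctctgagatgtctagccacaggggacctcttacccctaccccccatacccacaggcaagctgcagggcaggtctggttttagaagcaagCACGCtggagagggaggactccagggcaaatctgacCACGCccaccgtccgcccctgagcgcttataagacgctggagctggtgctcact
Slc2a1, chr4:119108495-119108744, plus strand: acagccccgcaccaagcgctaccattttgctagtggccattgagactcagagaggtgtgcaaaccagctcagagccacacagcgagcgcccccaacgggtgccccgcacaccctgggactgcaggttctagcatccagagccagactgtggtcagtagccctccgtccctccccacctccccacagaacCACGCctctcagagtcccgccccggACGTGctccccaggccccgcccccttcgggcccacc
Vegfa upstream start, chr17:46032378-46032627, minus strand: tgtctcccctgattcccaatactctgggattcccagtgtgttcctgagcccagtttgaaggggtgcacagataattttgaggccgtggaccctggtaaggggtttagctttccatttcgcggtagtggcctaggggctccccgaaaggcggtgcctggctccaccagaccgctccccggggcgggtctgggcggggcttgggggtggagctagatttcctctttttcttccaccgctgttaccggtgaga
Vegfa downstream start, chr17:46025164-46025413, minus strand: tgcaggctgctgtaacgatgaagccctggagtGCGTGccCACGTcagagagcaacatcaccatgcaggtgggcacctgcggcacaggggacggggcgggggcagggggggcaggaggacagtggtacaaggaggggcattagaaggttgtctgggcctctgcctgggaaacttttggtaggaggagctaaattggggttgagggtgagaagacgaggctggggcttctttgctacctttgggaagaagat
Hif3a, chr7:17062428-17062677, minus strand: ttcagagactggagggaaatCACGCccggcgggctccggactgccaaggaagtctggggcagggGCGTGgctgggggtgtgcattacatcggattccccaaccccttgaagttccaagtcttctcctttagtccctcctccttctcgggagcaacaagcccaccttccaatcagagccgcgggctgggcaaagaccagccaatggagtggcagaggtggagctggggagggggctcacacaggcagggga
Bnip3, chr7:138909507-138909756, minus strand: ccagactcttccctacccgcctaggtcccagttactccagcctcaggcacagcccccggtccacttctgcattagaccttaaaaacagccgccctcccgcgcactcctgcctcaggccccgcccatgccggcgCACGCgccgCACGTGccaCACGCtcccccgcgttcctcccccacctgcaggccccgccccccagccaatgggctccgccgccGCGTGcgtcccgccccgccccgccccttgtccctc
The Adm window held 2 GCGTG matches, both on the other strand, as CACGC. In Slc2a1 there were 1 ACGTG and 1 GCGTG, as there were before the downstream Vegfa start, while the window of the upstream Vegfa start held none. Hif3a had 2 GCGTG. Bnip3 had 5 matches, of which 2 were the overlapping ACGTG letters of a CACGTG. Among all 32851 RefSeq promoter windows of this length, 38.6% held at least 1 match and 6.58% held 3 or more, so that a match is common and describes these letters only.

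In untreated mice, SS mice had more RNA of the vessel-acting peptide Adm in both tissues and more Vegfa in the cortex than AA mice, while the other members did not pass the test. Adm encodes adrenomedullin, a peptide that widens vessels and tightens the endothelial barrier. Its gene (ENSMUSG00000030790.16) lies on chr7:110226858-110229027 of GRCm39, on the plus strand. In the cortex Adm was at 1.73 CPM in the lowest AA mouse, 2.29 CPM at the median and 4.48 CPM in the highest, against 3.07, 4.94 and 5.90 CPM in SS mice. The highest AA mouse, 5844, was exceeded by 5 of 8 SS mice. Adm was 1.76-fold higher in SS (log2 fold change 0.81, SE 0.17, adjusted p = 0.00776, edgeR quasi-likelihood test with Benjamini-Hochberg adjustment over all genes). In the hippocampus the AA mice ranged from 1.03 to 4.32 CPM (median 1.32) and the SS mice from 2.83 to 4.68 CPM (median 3.84). The groups met through mouse 5844 alone, since the other 10 of 11 AA mice lay below every SS mouse. The difference was 2.23-fold (log2 fold change 1.16, SE 0.21, adjusted p = 0.000881, edgeR). Without mice 5844, 5853, 7078 and 9631 it was 0.92 in the cortex and 1.41 in the hippocampus on the log2 scale, and the groups in the hippocampus no longer met.

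Vegfa encodes the growth factor that drives vessel sprouting and raises vessel permeability. Cortical Vegfa ranged from 40.6 to 101 CPM in AA mice (median 76.0) and from 67.04 to 147 CPM in SS mice (median 133). The top of the AA range was exceeded by 7 of 8 SS mice. It was 1.60-fold higher in SS (log2 fold change 0.68, SE 0.15, adjusted p = 0.0224, edgeR). In the hippocampus, values of 36.9, 65.7 and 87.5 CPM in AA mice (lowest, median, highest) stood against 60.05, 98.16 and 119 CPM in SS mice. The log2 fold change there was 0.63 (SE 0.18) and did not pass (adjusted p = 0.286, edgeR), although 6 of 7 SS mice exceeded the highest AA mouse. Slc2a1, the glucose transporter of the blood-brain barrier, was at 99.8 to 136 CPM in the cortex of AA mice (median 113) and at 128 to 169 CPM in SS mice (median 150), and in the hippocampus at 110 to 130 CPM (median 118) against 134 to 166 CPM (median 149). The hippocampal groups did not overlap. Its log2 fold changes of 0.28 (SE 0.13) and 0.35 (SE 0.11) did not pass in the model of all groups (adjusted p = 0.678 and 0.425, edgeR), but passed when only AA and SS libraries were fitted (0.31 and 0.34, adjusted p = 0.0194 and 0.01).

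**Figure D1:**
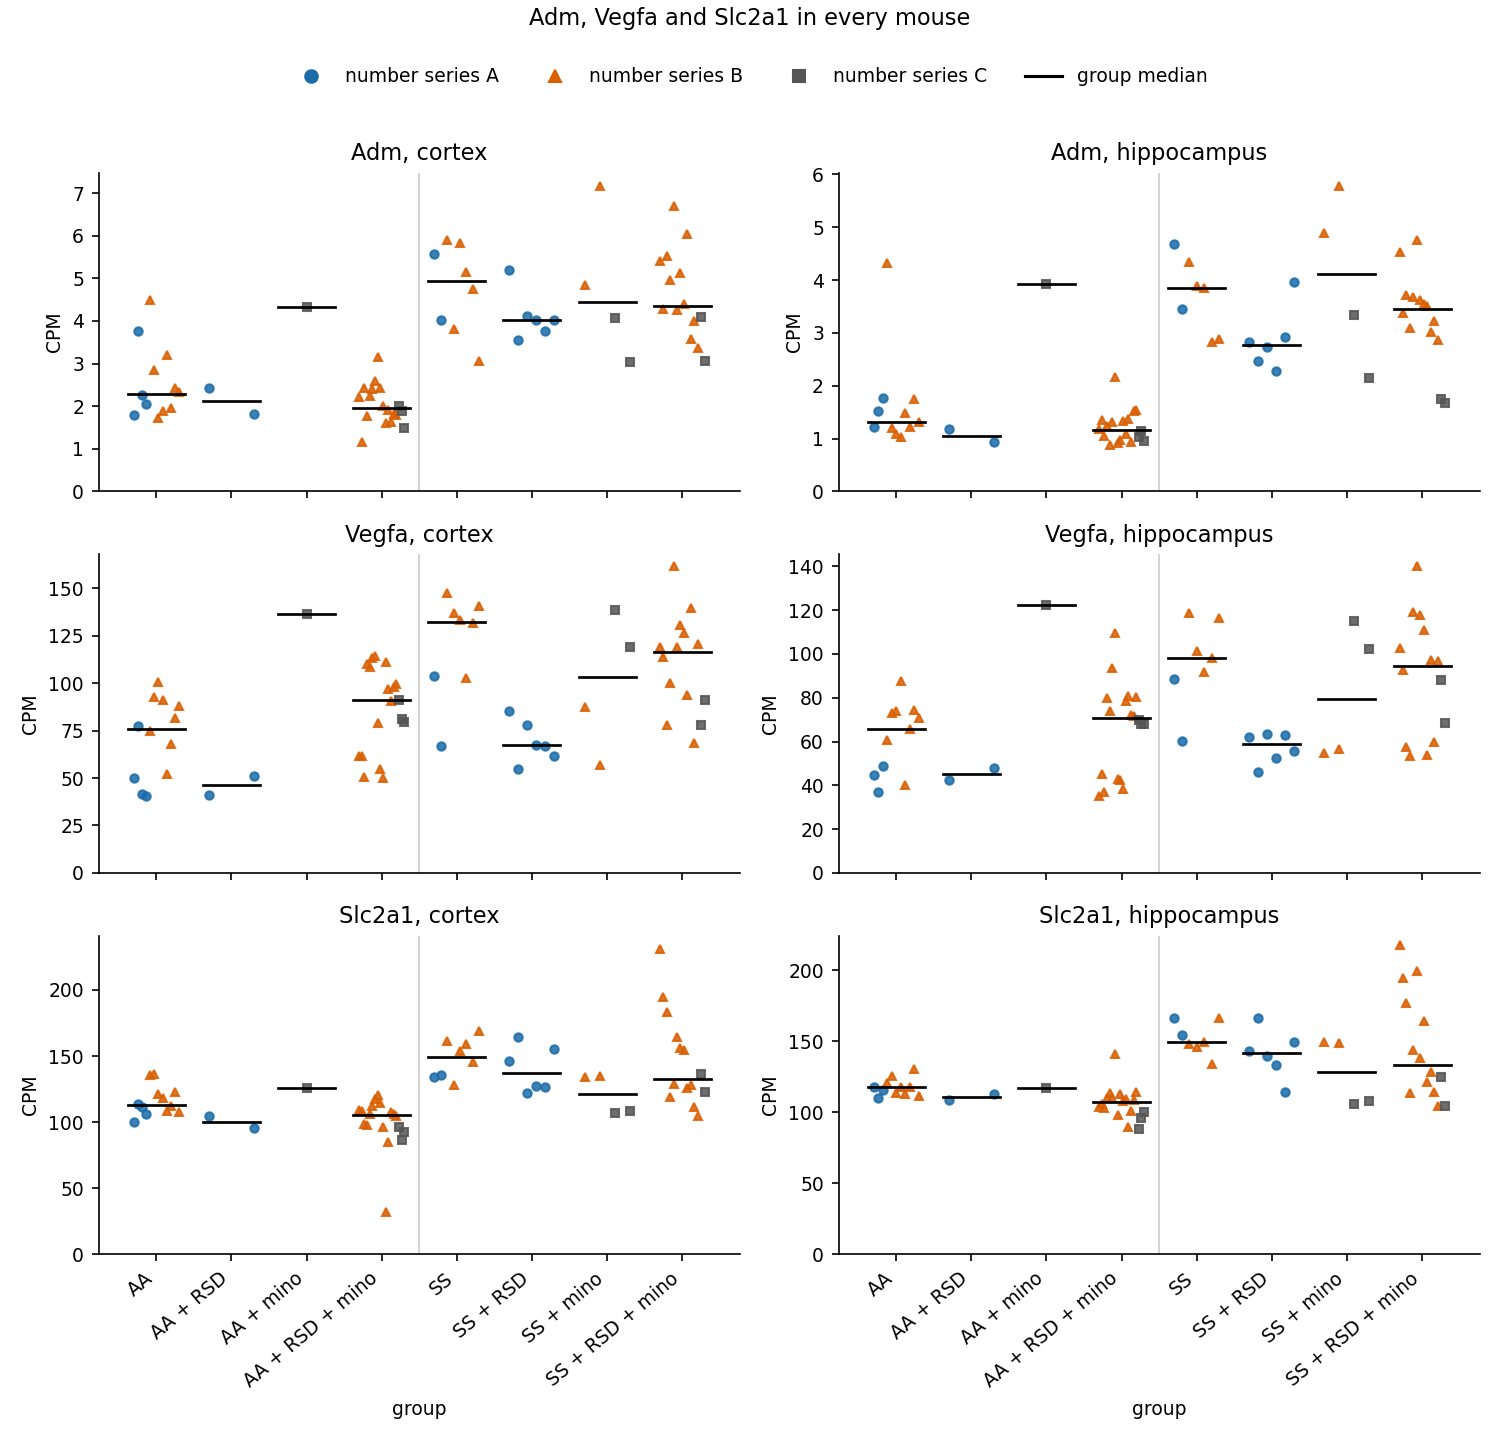
Adm, Vegfa and Slc2a1 in CPM for each mouse (points, marker shape by number series) in the 8 groups of each tissue, with a line at the group median. Adm medians of the SS groups were between 4.02 and 4.94 CPM in the cortex wherever a group had 6 or more mice, above the AA medians of 2.29 and 1.96 CPM.

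The alpha subunits and the hydroxylases showed no difference of this kind. Hif1a, the broadly used alpha subunit, had medians of 52.6 CPM in AA and 52.6 CPM in SS cortex, and 57.9 and 54.7 CPM in the hippocampus. Epas1, the HIF-2 alpha subunit, had medians of 166 and 170 CPM in the cortex and 170 and 180 CPM in the hippocampus. The AA and SS ranges of both genes overlapped in both tissues. Hif3a, whose products can restrain the other alpha subunits, spread widely within each group, from 4.67 to 25.5 CPM in AA and from 4.39 to 22.2 CPM in SS cortex, so that the SE of its log2 fold change was 0.34 around a value of -0.03. Egln1, the main oxygen-sensing hydroxylase, differed by 0.00 (SE 0.07) in the cortex and 0.04 in the hippocampus on the log2 scale, and Egln3, a hydroxylase that HIFs themselves induce, by 0.13 (SE 0.20) and -0.01. Of the metabolic targets, Pdk1, a kinase that limits mitochondrial use of pyruvate, differed by 0.03 and 0.10. Bnip3, a mitophagy receptor, differed by -0.06 and 0.00.

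Of the 10 members, 2 were called higher in the cortex and 1 in the hippocampus, and none lower, where 0.206% and 0.158% of all genes tested were called in either direction. At an unadjusted p under 0.05 there were 3 in each tissue. Of all genes tested, 1643 of 22870 (cortex) and 896 of 23372 (hippocampus) were under it. The median log2 fold change of the members was 0.02 in the cortex and 0.09 in the hippocampus, beside -0.05 and 0.01 over all genes. Within series B alone the Adm difference was 0.81 in the cortex (adjusted p = 0.0319, edgeR) and 1.05 in the hippocampus (adjusted p = 0.0551), and within series A, with 2 SS mice, 0.93 and 1.38 (adjusted p = 0.867 and 0.183). Fitting AA and SS libraries alone also ended the call of hippocampal Adm (1.15, adjusted p = 0.0826) and of cortical Vegfa (0.71, adjusted p = 0.0716).

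Adm lies 6.74 Mb from Hbb-bs on the same chromosome, and mouse beta-globin is the locus that Townes mice carry in humanized form. Of the 230 genes tested within 10 Mb of Hbb-bs, 2 were called between SS and AA cortex, namely Adm and Hbb-bs itself, which was above 0.224 CPM in AA mouse 9631 alone. In the hippocampus it was the same 2 genes of 227. Linked sequence around the globin locus and the blood disease cannot be told apart in this design. The strand counted is also not stated. In the annotation used here, 31.9% of the exonic bases of Adm are overlapped by Gm72687 on the opposite strand. Reads of the pair cannot be separated if strand was not used. Such overlap was 11.7% for Bnip3, 8.33% for Hif1a and 5.31% for Slc2a1, and lower for the other members.

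Erythroid markers rose with the same comparison, and single vessel markers were called. Of the 9 erythroid markers found in the tables, 6 of 8 tested rose in the SS cortex and 6 of 9 in the SS hippocampus, with median log2 fold changes of 3.06 and 3.33. Their summed level was 5.54 CPM at the median of AA cortex (3.45 to 114) and 127 CPM in SS cortex (64.2 to 150), with Alas2 the most abundant and none at 0 in all mice of either group. Among 10 endothelial markers, 1 rose in each tissue (Esam, by 0.48 and 0.49), and their sum was 267 CPM at the median of AA cortex (230 to 358) and 345 CPM in SS cortex (307 to 359), led by Slco1a4. In the hippocampus this sum was 251 and 313 CPM. Of 10 pericyte and smooth muscle markers, 1 rose in the cortex (Kcnj8, by 0.66) and 2 in the hippocampus (Kcnj8 by 0.82, Vtn by 0.65), with summed medians of 228 and 306 CPM in the cortex and of 262 and 347 CPM in the hippocampus, led by Rgs5. Their part in the differences of Adm and Vegfa was not tested, and in bulk tissue more cells of a type and more RNA per cell cannot be told apart. Choroid plexus markers were called in the cortex for 2 of 10 genes (Ttr by 3.54, Slc4a5 by 2.97), with 1 SS library at a summed 1224 CPM where the SS median was 14.5 CPM, and for 0 of 10 in the hippocampus. No astrocyte, neuron, oligodendrocyte or microglia marker was called in either tissue, nor was any of 14 genes that glucocorticoids induce.

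Few other genes of the pathway were called between untreated SS and AA mice, where few genes were called at all. None of 18 HIF partners and regulators, which include Arnt, Arnt2, Vhl and the Cited genes, and none of 19 glycolytic and metabolic HIF targets was called in either tissue. Among 19 tested targets of vessels, matrix and oxygen supply, 1 was called in each tissue, Kdr, the main receptor of Vegfa on endothelial cells (0.71 in the cortex, 0.64 in the hippocampus), and the summed level of these targets, led by Tfrc, had medians of 368 CPM in AA and 449 CPM in SS cortex and of 386 and 458 CPM in the hippocampus. Of 18 targets of stress, autophagy and feedback, 0 were called in the cortex and 1 in the hippocampus, Ankrd37 (0.67).

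The same contrast could be read again in stressed mice given minocycline, which share no libraries with the untreated mice. SS + RSD + minocycline mice had more Adm and more Slc2a1 than AA + RSD + minocycline mice in both tissues. Cortical Adm was at 1.17 CPM (lowest), 1.96 CPM (median) and 3.16 CPM (highest) in AA + RSD + minocycline mice and at 3.05, 4.35 and 6.69 CPM in SS + RSD + minocycline mice. The groups met through mouse 7078, the lowest of the SS + RSD + minocycline mice, and without the 4 doubted mice they did not overlap. The difference was 2.20-fold (log2 fold change 1.14, SE 0.13, adjusted p = 2.46e-08, edgeR). Hippocampal Adm ranged from 0.884 to 2.17 CPM (median 1.17) against 1.67 to 4.76 CPM (median 3.45). The highest AA + RSD + minocycline library was that of mouse 5853 and the lowest SS + RSD + minocycline library that of mouse 7078. This was a 2.72-fold difference (log2 fold change 1.44, SE 0.16, adjusted p = 5.55e-09, edgeR).

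Slc2a1 in the cortex of AA + RSD + minocycline mice was at 32.02, 105 and 121 CPM (lowest, median, highest) and in SS + RSD + minocycline mice at 105, 133 and 231 CPM. The highest AA value was exceeded in 11 of 14 SS mice. It was 1.43-fold higher in SS (log2 fold change 0.52, SE 0.10, adjusted p = 0.00122, edgeR), and without mouse 9851 the log2 fold change was 0.48 (adjusted p = 6.42e-05). In the hippocampus the values were 88.6, 107 and 141 CPM against 104, 133 and 218 CPM, with 6 of 14 SS mice beyond the AA range. The log2 fold change was 0.45 (SE 0.08, adjusted p = 0.000321, edgeR). Vegfa did not pass here, with 0.32 (SE 0.12) in the cortex and 0.44 (SE 0.13) in the hippocampus (adjusted p = 0.322 and 0.0549, edgeR). The hippocampal value passed without the 4 doubted mice (0.52, adjusted p = 0.0184).

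In this contrast 2 of the 10 members were called in each tissue, both higher, beside 0.599% (cortex) and 2.73% (hippocampus) of all genes. The median of the members was 0.11 and 0.13, beside 0.00 and -0.01 over all genes. Hif3a (0.48, SE 0.26, and 0.58, SE 0.28), Epas1 (0.09 and 0.14) and Egln1 in the cortex (0.13) did not pass. Genes within 10 Mb of Hbb-bs gave 3 calls of 230 in the cortex and 6 of 227 in the hippocampus, with Adm in both. The erythroid markers rose for 7 of 8 tested in the cortex and 8 of 9 in the hippocampus, and their summed medians were 6.10 and 90.0 CPM in the cortex and 4.75 and 72.5 CPM in the hippocampus. Endothelial markers were called for 0 of 10 and 1 of 10 (Abcb1a, 0.36), with cortical sums of 262 and 319 CPM, and pericyte markers for 2 of 10 in each tissue (Kcnj8 0.55 and Vtn 0.40 in the cortex, Abcc9 0.56 and Kcnj8 0.41 in the hippocampus). Among the other HIF targets, Ankrd37 (0.65) and Ddit4 (0.60), which inhibits mTORC1, rose in the cortex, and Ankrd37 (0.57) in the hippocampus. The vessel targets Edn1 (0.62 and 0.50) and, in the hippocampus, Flt1 (0.35), a receptor that binds Vegfa, also rose. None of the 19 glycolytic targets was called.

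Between mice given RSD alone, 6 SS + RSD mice were set against 2 AA + RSD mice. Adm was at 1.82 and 2.43 CPM in the cortex of the AA + RSD mice and at 3.54 to 5.20 CPM (median 4.02) in SS + RSD mice. In the hippocampus it was at 0.932 and 1.18 CPM against 2.27 to 3.96 CPM (median 2.78). Neither tissue showed any overlap, and the same was true of Slc2a1 in both tissues, of Vegfa in the cortex and of Egln1 in the hippocampus. Hippocampal Egln1 was at 71.1 and 72.5 CPM against 74.5 to 89.2 CPM. Ranges can stay apart by chance with 2 mice in a group, and the share of all genes without overlap was not counted. With 2 AA mice no member passed: the log2 fold changes of Adm were 0.94 (SE 0.32) and 1.48 (SE 0.40), with adjusted p = 1 and 0.521 (edgeR). Called were 0 members in each tissue by edgeR and by DESeq2, beside 0% (cortex) and 0.0171% (hippocampus) of all genes by edgeR. An unadjusted p under 0.05 was reached by 3 and 2 members, and by 670 of 22870 and 667 of 23372 genes tested. Without the 4 doubted mice hippocampal Adm passed (1.48, adjusted p = 0.0279, edgeR). With mouse 9674 under its labels the hippocampal value was 0.72 (adjusted p = 0.489) and the cortical value 1.18 (adjusted p = 0.0251). No member was called in the interaction of genotype and RSD in either tissue by edgeR (0% and 0.0128% of all genes) or DESeq2. Adm had 0.12 and 0.32 in it. At an unadjusted p under 0.05 there were 0 members in each tissue, beside 424 of 22870 and 622 of 23372 genes tested.

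**Figure D2:**
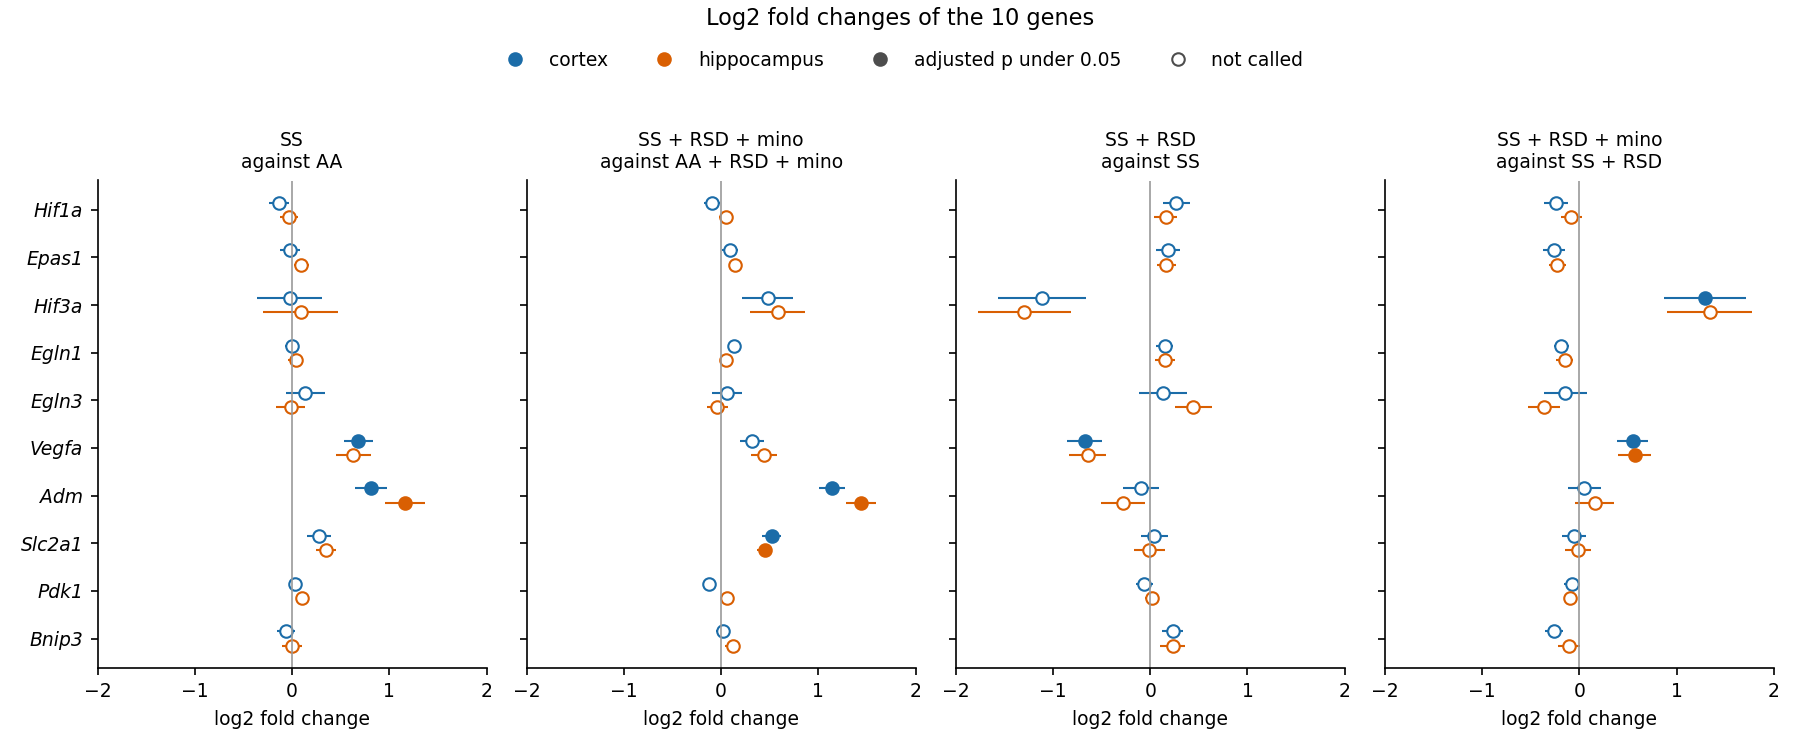
Log2 fold changes of the 10 members with their SE (bars) in the SS against AA, SS + RSD + minocycline against AA + RSD + minocycline, SS + RSD against SS, and SS + RSD + minocycline against SS + RSD comparisons of each tissue; filled points had an adjusted p under 0.05. Adm stood at 0.81 to 1.44 in the genotype comparisons, and the comparisons for RSD and for minocycline share the 6 SS + RSD mice.

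RSD in SS mice was asked about next, in SS + RSD against SS mice. Vegfa was lower in the cortex of SS + RSD mice, at 54.5, 67.2 and 85.5 CPM (lowest, median, highest) against 67.04, 133 and 147 CPM in SS mice. In this tissue 7 of 8 SS mice lay above every SS + RSD mouse. The difference was 1.60-fold (log2 fold change -0.68, SE 0.18, adjusted p = 0.0425, edgeR), a call lost with no filter on low counts (-0.70, adjusted p = 0.0561). In the hippocampus Vegfa was at 46.2 to 63.4 CPM (median 58.8) against 60.05 to 119 CPM (median 98.2), with 6 of 7 SS mice above every SS + RSD mouse. It did not pass there (-0.64, SE 0.19, adjusted p = 0.0547, edgeR). Hif3a had the largest fold change of the members. Its medians were 6.04 CPM in SS + RSD and 14.6 CPM in SS cortex, and 5.62 and 15.3 CPM in the hippocampus. It did not pass (-1.11, SE 0.45, and -1.30, SE 0.48, adjusted p = 0.115 and 0.116, edgeR). Apart from fits by number series, given below, cortical Hif3a did not pass in 10 of 11 alternatives and passed in the other.

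In cortex 1 of 10 members was called, beside 2.57% of all genes. In the hippocampus 0 of 10 were called by edgeR, beside 3.11% of all genes, and 1 by DESeq2 (Vegfa). An unadjusted p under 0.05 was reached there by 3 of 10 members and by 4050 of 20701 genes tested. The members' median of 0.08 and 0.09 stood beside 0.08 and 0.06 over all genes. Adm in the cortex of SS + RSD mice, with a median of 4.02 CPM, overlapped the SS mice at 4.94 CPM. None of the other pathway or marker lists held a called gene, while the medians of the microglia markers were 0.49 in the cortex and 0.38 in the hippocampus and those of the glycolytic targets 0.27 and 0.19. Leaving out SS + RSD mice in turn, the cortical Vegfa call held without mouse 5400 and was lost without 5354, 5391, 9615, 9616 or 9621 (adjusted p from 0.0387 to 0.0912, edgeR), with log2 fold changes from -0.76 to -0.64. The hippocampal value passed without mouse 5400 (-0.69, adjusted p = 0.0472).

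Number series moved with this comparison, since the 6 SS + RSD mice were all of series A and most SS mice of series B. Cortical Vegfa was at 67.04 and 104 CPM in the 2 SS mice of series A, and at 103 to 147 CPM (median 135) in the 6 of series B. Hif3a was at 4.39 and 5.43 CPM in the series A mice and at 8.10 to 22.2 CPM (median 17.3) in series B. The 6 SS + RSD mice, at 2.73 to 8.93 CPM, spanned both series A values of Hif3a. Within series A the log2 fold change of Vegfa was -0.28 in the cortex and -0.34 in the hippocampus, and that of Hif3a changed sign to 0.25 and 0.28; none of these passed (adjusted p = 1 and 0.72 for Vegfa, 1 and 0.861 for Hif3a, edgeR). With series as a term in the model Vegfa was at -0.28 and -0.36, and Hif3a at 0.27 and 0.25. RSD and number series cannot be fully told apart with 2 SS mice in series A.

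Among control mice alone, where neither RSD nor minocycline differed, series B and A were compared with genotype in the model. Hif3a was higher in series B by 1.32 in the cortex and 1.43 in the hippocampus (log2, adjusted p = 0.000967 and 0.00202, edgeR), and Vegfa by 0.55 and 0.47 (adjusted p = 0.00237 and 0.00604). Hif3a in AA cortex was at 4.67 to 9.05 CPM in the 4 mice of series A and at 5.79 to 25.5 CPM in the 8 of series B. Lower in series B were Bnip3 (-0.26), Egln1 (-0.25) and Epas1 (-0.13) in the cortex and Egln3 (-0.57), Egln1 (-0.34) and Epas1 (-0.17) in the hippocampus. Adm did not pass (-0.02 in the cortex and -0.10 in the hippocampus), and without mice 5844 and 9631 its values were -0.20 and -0.38 (adjusted p = 0.376 and 0.064, edgeR). Leaving out these mice also ended the hippocampal call of Epas1 (-0.18, adjusted p = 0.0711), so that 4 members were called there. The genotype differences of Adm and Vegfa above kept their direction within each series. Of the genes tested, 40.3% of cortical and 40.8% of hippocampal genes were called, and 5 of 10 members in either tissue. Over all libraries used, RSD and minocycline mice included, the share of reads outside annotated genes also differed between the series. Its medians were 4.43% in A and 9.65% in B for the cortex and 4.64% and 9.11% for the hippocampus. Its part in these differences was not tested. Other lists differed between the series in the control mice alone. Lower in series B were 9 of 10 microglia markers in each tissue (medians -0.49 and -0.62). So were 9 of 19 glycolytic targets in the cortex and 13 of 19 in the hippocampus (medians -0.19 and -0.29). The same held for 7 and 6 of 10 astrocyte, 4 and 5 of 10 endothelial and 4 and 5 of 10 neuron markers. Oligodendrocyte markers were lower for 2 and 8 of 10 (medians -0.27 and -0.67). The microglia and glycolytic medians given above for RSD set series A mice against mostly series B mice.

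**Figure D3:**
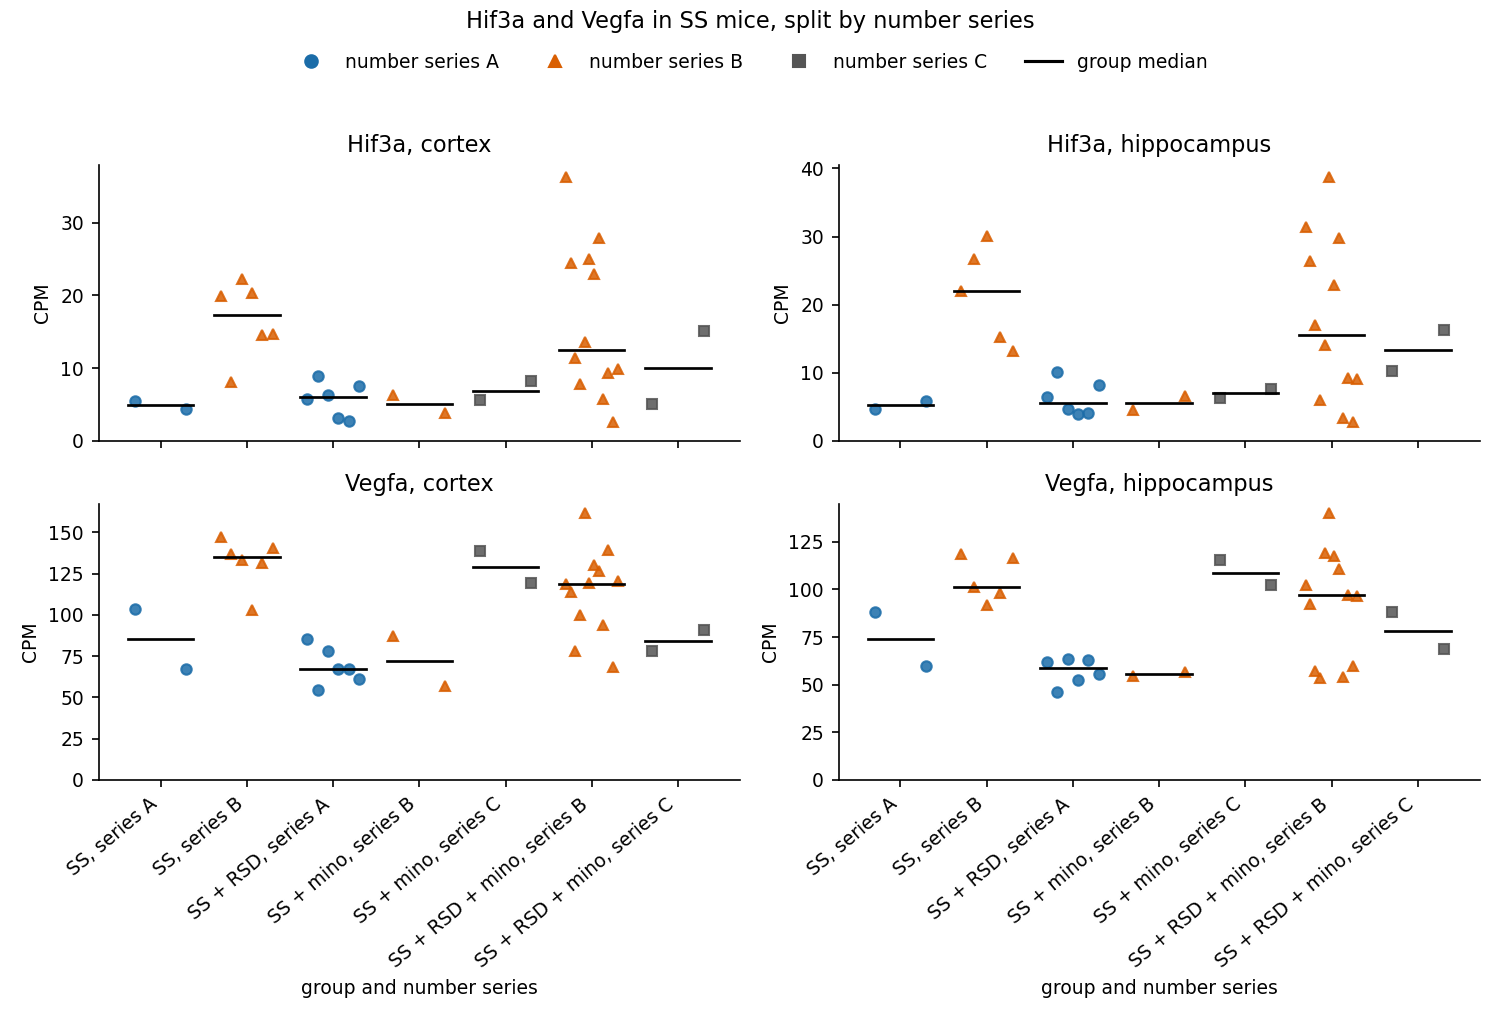
Hif3a and Vegfa in CPM for each SS mouse (points) of each treatment group, split by number series, in both tissues. In the cortex Hif3a lay at 4.39 and 5.43 CPM in SS mice of series A and at 2.73 to 8.93 CPM in SS + RSD mice of the same series, below the series B median of 17.3 CPM in SS mice.

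Minocycline in stressed SS mice was read from SS + RSD + minocycline against SS + RSD, which uses the same 6 SS + RSD mice as the RSD comparison. Vegfa in the cortex was at 68.5, 116 and 162 CPM (lowest, median, highest) with minocycline, and 11 of 14 of these mice lay above every SS + RSD mouse. It was 1.46-fold higher (log2 fold change 0.55, SE 0.16, adjusted p = 0.0319, edgeR). Hippocampal Vegfa was at 53.5, 94.6 and 140 CPM, with 10 of 14 mice above every SS + RSD mouse. Its fold was 1.49 (log2 fold change 0.57, SE 0.17, adjusted p = 0.045, edgeR), a call lost with no filter on low counts (adjusted p = 0.0711) and with the identical libraries kept (adjusted p = 0.0506). Hif3a in the cortex was at 2.56, 12.5 and 36.2 CPM, with 10 of 14 above every SS + RSD mouse, a 2.45-fold difference (log2 fold change 1.29, SE 0.42, adjusted p = 0.0497, edgeR). In the hippocampus Hif3a ranged from 2.72 to 38.7 CPM (median 15.2) and did not pass by edgeR (1.34, SE 0.44, adjusted p = 0.0588), but did by DESeq2 (adjusted p = 0.0169). No other member passed, with Bnip3 at -0.26, Egln1 at -0.18 and Epas1 at -0.26 in the cortex and Epas1 at -0.22 and Egln3 at -0.36 in the hippocampus.

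Thus 2 of 10 members were called higher in the cortex, beside 8.85% of all genes, and 1 of 10 in the hippocampus, beside 5.96%. The median of the members was -0.11 and -0.09, beside -0.05 and -0.03 over all genes. All minocycline-treated stressed SS mice were of series B or C and all untreated ones of series A. With series as a term the log2 fold change of Vegfa was 0.03 in the cortex and 0.17 in the hippocampus, and Hif3a changed sign to -0.32 and -0.52. No value within a series could be had, so minocycline and number series cannot be told apart in this comparison. Leaving out 1 of the 6 SS + RSD mice at a time, the cortical Vegfa call held without mouse 5354 or 5400, that of Hif3a without mouse 5391 and the hippocampal Vegfa call without mouse 5400, and each was lost without any of the others (highest adjusted p 0.0642, 0.111 and 0.0998, edgeR). The Hif3a call was also lost without the 4 doubted mice (1.30, adjusted p = 0.0598), with the groups compared alone (1.29, adjusted p = 0.0633) and with no filter on low counts (1.33, adjusted p = 0.0657).

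Other genes of the pathway fell and rose in the same comparison. In the cortex, of 19 glycolytic targets 3 fell (Ldha by 0.48, Hk2 by 0.41 and Pgam1 by 0.29 on the log2 scale) and 1 rose, the glycogen synthase Gys1 (0.32). Of the stress targets 2 fell (Ppp1r3c by 0.54 and Bnip3l, the close relative of Bnip3, by 0.30). Among the vessel and matrix targets, P4ha2 rose by 0.73 and Tek and P4ha1 fell by 0.59 and 0.33. In the hippocampus P4ha2 (0.55) and Plod2 (0.42), both of collagen hydroxylation, rose, while Car12 fell by 0.78, Kdr by 0.54 and P4ha1 by 0.33. No partner or regulator was called in either tissue, and no glycolytic or stress target in the hippocampus. Markers of other cell types were called as well, and single calls of 10 are near the 8.85% and 5.96% of all genes. In the cortex 4 of 10 astrocyte markers fell (Gjb6, Aldh1l1, Aldoc, Gja1), 2 of 10 endothelial (Pecam1, Cdh5), 2 of 8 erythroid (Epb42, Slc4a1), and 1 each of the microglia (Tmem119), neuron (Nefl) and pericyte (Acta2) markers. In the hippocampus 2 astrocyte (Aldh1l1, Slc1a2), 2 choroid plexus (Prlr, Kl), 1 endothelial (Pecam1) and 1 microglia marker (Cx3cr1) fell, and the glucocorticoid-induced Arrdc2 rose in both tissues (0.70 and 0.75). This comparison sets series B and C against A, and in untreated control mice alone astrocyte, endothelial, microglia and glycolytic genes were also lower in series B than in A, by the counts given above. The part of these markers in the member differences was not tested.

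In SS mice without RSD, 4 mice given minocycline were compared with SS mice. Their cortical Vegfa values were 56.9, 87.3, 119 and 139 CPM and their Hif3a values 3.86, 5.62, 6.37 and 8.20 CPM. The lowest value of each gene lay below every SS mouse and the others lay within the SS range. No member was called in either tissue by edgeR or DESeq2, beside 0% of all genes in each by edgeR. An unadjusted p under 0.05 was reached by 1 member in each, and by 1406 of 19906 (cortex) and 449 of 20701 (hippocampus) genes tested. The lower pair of cortical Vegfa values came from the 2 mice of series B and the higher pair from the 2 of series C. Within series B Vegfa (-0.72, adjusted p = 0.0262, against -0.18 in the model of all mice) and Bnip3 (0.41, adjusted p = 0.0379, against 0.11) passed in the cortex (edgeR), and Vegfa did not in the hippocampus (-0.81, adjusted p = 0.0881). Hif3a differed by -1.10 (SE 0.52, adjusted p = 0.699) in the cortex and -1.32 (SE 0.55, adjusted p = 0.981) in the hippocampus (edgeR). Nor was any member called between SS + RSD + minocycline and SS + minocycline mice by edgeR (0% of all genes in each tissue) or DESeq2. Hif3a differed there by 1.28 (SE 0.50) and 1.36 (SE 0.52). In each tissue 1 member had an unadjusted p under 0.05, beside 816 of 19906 (cortex) and 998 of 20701 (hippocampus) genes tested. Within series B, Bnip3 (-0.37, adjusted p = 0.0446) and Hif1a (0.43, adjusted p = 0.0327) passed in the cortex (edgeR). The fits within series B held 2 SS + minocycline mice. The 0% of all genes belongs to the model of all mice, and the share called within series B is not given here. Adm in the SS + minocycline mice was at 3.03, 4.07, 4.84 and 7.18 CPM in the cortex and at 2.15, 3.33, 4.89 and 5.79 CPM in the hippocampus, within or above the range of SS mice except for the lowest mouse in each tissue.

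In AA mice RSD and minocycline gave no calls among the members. Vegfa was at 41.2 and 51.02 CPM in the cortex of the 2 AA + RSD mice, inside the AA range, and at 49.8 to 114 CPM (median 91.1) in AA + RSD + minocycline mice. Hif3a was at 5.37 and 5.42 CPM and at 4.18 to 18.7 CPM (median 11.3). For AA + RSD against AA, 0 members were called by edgeR and by DESeq2 (0% and 0.0419% of all genes called by edgeR). An unadjusted p under 0.05 was held by 2 members in the cortex, beside 1148 of 21861 genes tested. In the hippocampus it was held by 0, beside 835 of 21486. For AA + RSD + minocycline against AA + RSD there were likewise 0 by both (0% and 0.0419% of all genes called by edgeR). Unadjusted there were 3 and 0 members, beside 2867 of 21861 and 1494 of 21486 genes tested. With 2 AA + RSD mice, both of series A, the spread came mostly from the other groups. The AA + minocycline group was a single mouse and entered no comparison.

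The order of the members was compared per length, as CPM per kilobase of exon, in AA and SS control mice separately. Number series A and B were pooled for this, and some orders turned within a series. In AA cortex the medians were 29.4 for Epas1, 24.1 for Slc2a1, 23.3 for Bnip3 and 17.7 for Vegfa. In SS cortex Slc2a1 (31.9) and Vegfa (30.8) came before Epas1 (30.1) and Bnip3 (23.5). In the 2 SS mice of series A the cortical order was Epas1, Slc2a1, Bnip3 and Vegfa. Their medians there were 168, 135, 116 and 85.3 CPM before scaling to length. The ranges of neighbours among these 4 genes met in both genotypes, while in AA cortex Epas1 (24.7 to 32.5) and Vegfa (9.45 to 23.4) did not overlap. A middle set held Pdk1, Egln1 and Hif1a, at 8.83, 8.77 and 6.30 in AA and 9.53, 9.18 and 6.30 in SS cortex. Below them stood Egln3 (4.09 in AA, 5.07 in SS). Last came Hif3a (1.64) before Adm (1.41) in AA cortex, and Adm (3.03) before Hif3a (1.91) in SS cortex. In AA cortex of series A, Adm (2.15 CPM on 1.63 kb) came before Hif3a (7.14 CPM on 7.65 kb). In the hippocampus Epas1 (30.2 in AA, 31.9 in SS) and Slc2a1 (25.1 and 31.8) led in both genotypes. Bnip3 (17.9) came before Vegfa (15.3) in AA and Vegfa (22.8) before Bnip3 (17.7) in SS hippocampus. In SS hippocampus of series A, Bnip3 (82.9 CPM on 4.32 kb) came before Vegfa (74.2 CPM on 4.30 kb). The 3 lowest were Hif3a (2.36), Egln3 (1.55) and Adm (0.810) in AA, and Adm (2.36), Hif3a (1.995) and Egln3 (1.64) in SS hippocampus. The order among these 3 also turned within series. In series A, Egln3 came before Hif3a in AA hippocampus (5.47 CPM on 2.69 kb against 7.13 CPM on 7.65 kb). The same held in SS hippocampus of series A (6.12 against 5.34 CPM on these lengths). In SS hippocampus of series B, Hif3a came before Adm.

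**Figure D4:**
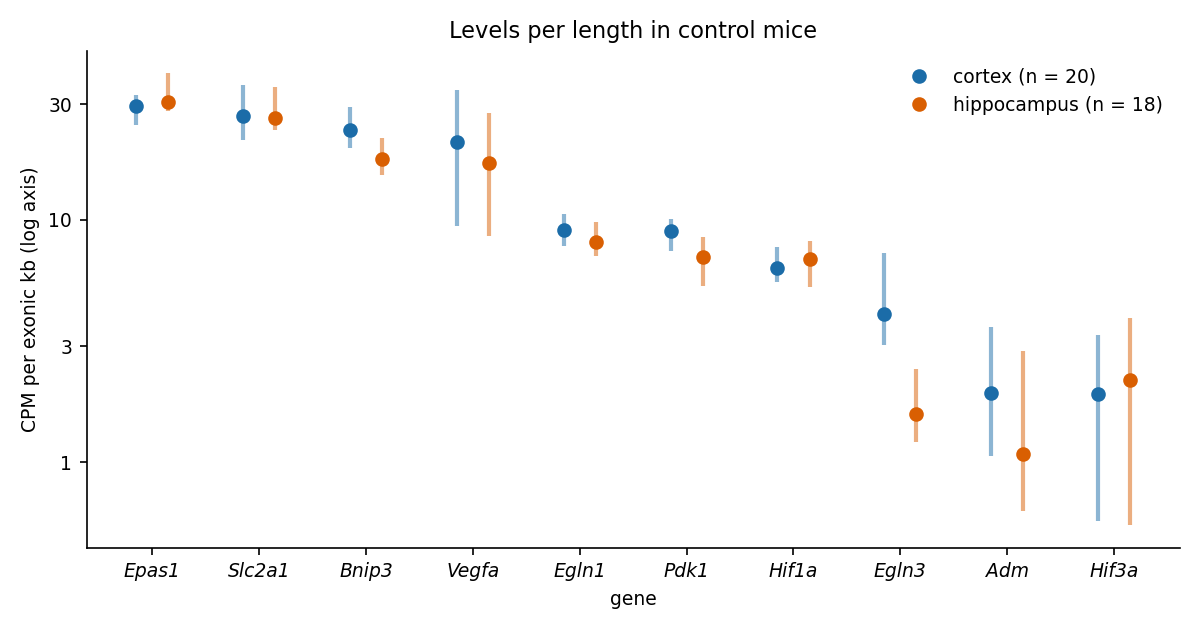
Level of each member in control mice as CPM per exonic kilobase (log axis), with the median as a point and the lowest to highest mouse as a bar, for 20 cortex and 18 hippocampus libraries. AA and SS mice are pooled here, so the bars of Adm, Vegfa and Slc2a1 span both genotypes; the median of Egln3 was 4.09 (cortex) and 1.59 (hippocampus).

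The tissues were compared next, where the members were called about as often as all genes, at 6 of 10 beside 59.2%, all 6 lower in the hippocampus. In the 18 control mice with both libraries (11 AA and 7 SS), hippocampus was compared with cortex with the mouse as a block, since the tissues came from the same animals. Egln3 was lower in the hippocampus in 18 of 18 mice, at 3.51 to 6.13 CPM in AA mice (median 4.17) against 9.22 to 17.5 CPM in AA cortex (median 10.99). The AA ranges of the tissues did not meet. This was a 2.74-fold difference (log2 fold change -1.45, SE 0.07, adjusted p = 2.29e-14, edgeR). Adm (-0.57, SE 0.08), Pdk1 (-0.41, SE 0.03) and Bnip3 (-0.37, SE 0.03) were also lower in 18 of 18 mice, Vegfa (-0.26, SE 0.04) in 17 and Egln1 (-0.15, SE 0.03) in 16, with adjusted p of 1.18e-06, 5.79e-11, 5.98e-11, 1.28e-06 and 2.25e-05 (edgeR). The alpha subunits Hif1a (0.08), Epas1 (0.05) and Hif3a (0.11) and the transporter Slc2a1 (-0.01) did not pass. The median of the members was -0.20 beside 0.01 over all genes. Without the block Vegfa did not pass (-0.27, adjusted p = 0.0562, edgeR), which left 5 calls.

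**Figure D5:**
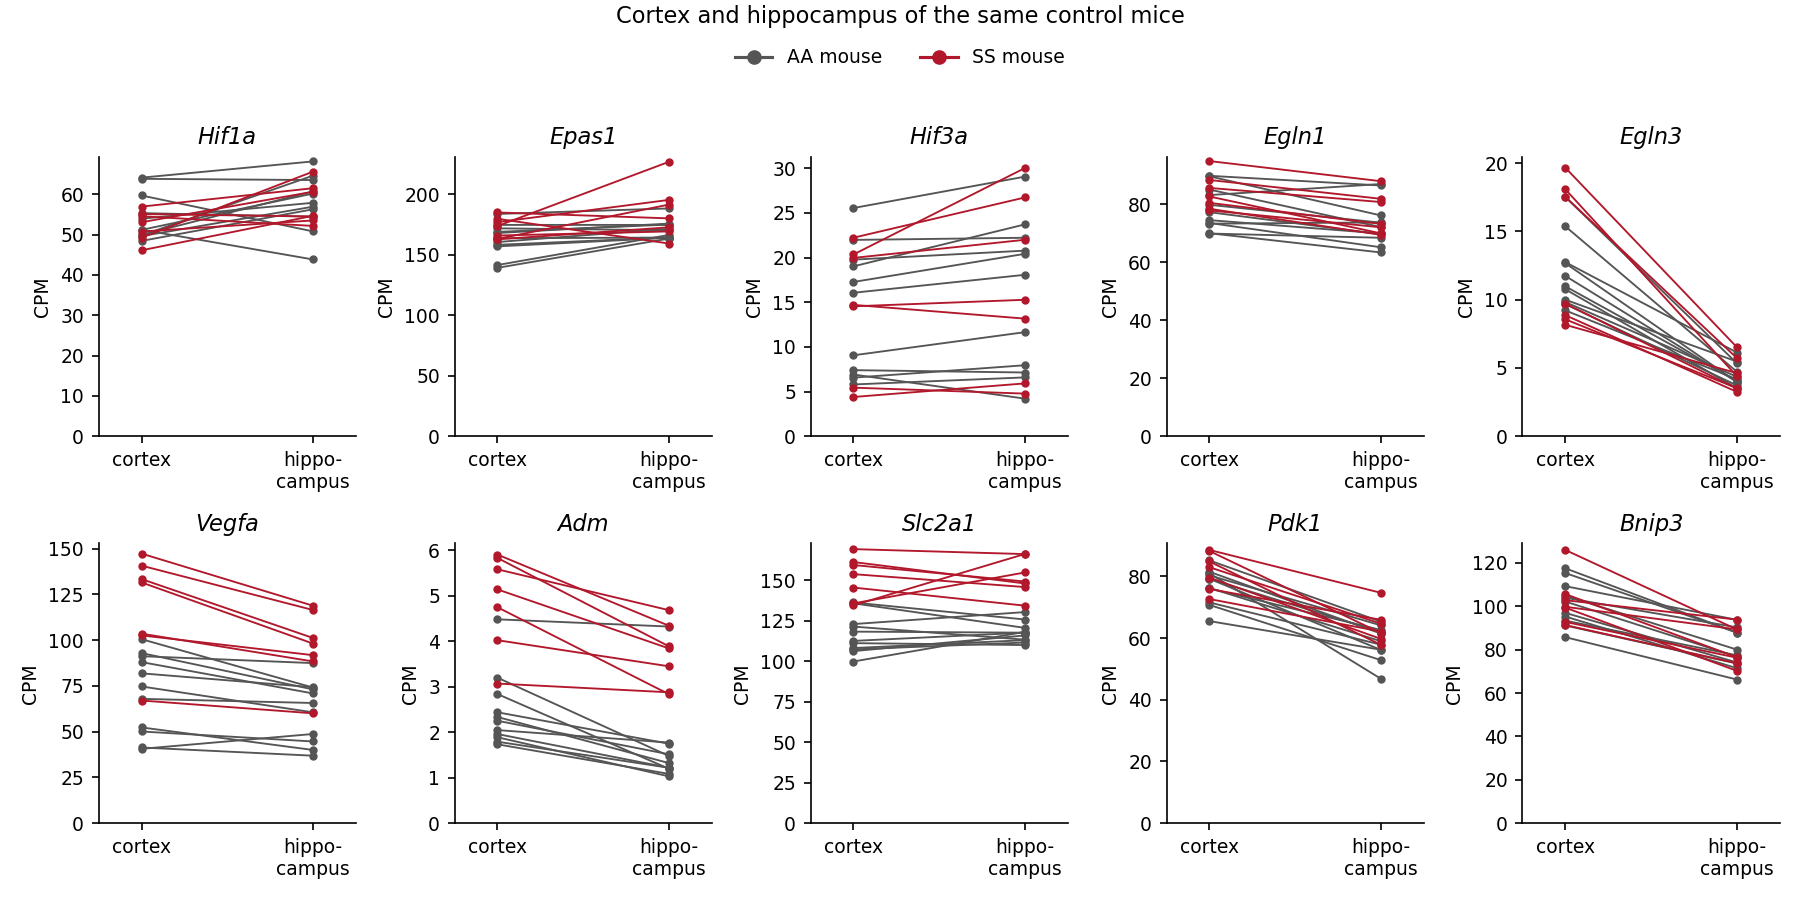
CPM of each member in the cortex and hippocampus libraries of the 18 control mice, with a line for each mouse (AA grey, SS red). The lines of Egln3, Adm, Pdk1 and Bnip3 fell from cortex to hippocampus in all 18 mice, while those of Hif1a, Epas1 and Hif3a mostly did not.

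The other lists stood beside the same 59.2% of all genes. Of the partners and regulators 2 were higher and 5 lower in the hippocampus of 18 (Cited4 by -2.47, Arnt2 by -0.65), of the glycolytic targets 5 and 10 of 19 (Hk2 by 0.67, Pfkp by -0.70), of the stress targets 9 and 7 of 18 (Stc2 by 1.11, Rora by -1.19) and of the vessel targets 8 and 4 of 19 (Car12 by 1.73, Pgf by 1.14). Of the markers, choroid plexus genes were higher for 10 of 10, microglia for 6 of 10, pericyte for 5 with 1 lower, and astrocyte for 4 with 2 lower, while neuron markers were lower for 6 of 10, endothelial for 5 of 10 and erythroid for 2 of 7. No oligodendrocyte marker was called, and glucocorticoid-induced genes went both ways (6 higher and 5 lower of 14). Whether cell makeup set the tissue differences of the members was not tested.

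The genotype differences of the members were compared between the tissues in 1 model over both. Adm differed between tissues by 0.27 (SE 0.18, adjusted p = 1, edgeR) for SS against AA and by 0.26 (SE 0.13, adjusted p = 0.506) for SS + RSD + minocycline against AA + RSD + minocycline. No member was called by edgeR for SS against AA (0.116% of all genes) or for the minocycline-treated contrast (0% of all genes). At an unadjusted p under 0.05 there were 0 members for SS against AA, beside 987 of 24174 genes tested. For the minocycline-treated contrast there was 1, Pdk1 at 0.17, beside 2405 of 24174. The differences between the tissues in the RSD comparison of SS mice held 0 called members, beside 0.0827% of all genes. Members at an unadjusted p under 0.05 were 0 as well, beside 1303 of 24174 genes tested. DESeq2 was not run for these differences. The larger Adm folds in the hippocampus were therefore not separable from those in the cortex by this test.

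Genes whose levels followed each member most closely were sought among 13077 genes, after the mean of each group was taken from log2 CPM in each tissue. They were ranked by the lower of the Pearson correlations of these deviations in the 65 cortex and 63 hippocampus libraries. Differences between group means were thus removed, but mice within a group still differed in depth and number series, so the values are descriptions. Closest to Vegfa were C230037L18Rik, Trim39 and Stk38, each at 0.90. Hif3a was followed most closely by Pla2g3 (0.85), Phyhd1 (0.82) and Cklf (0.81). Slc2a1 had Mfsd2a (0.71), a lipid transporter of the blood-brain barrier, Pnpla2 (0.67) and Xdh (0.66). Adm had 8430408G22Rik (0.63), Ier3 and Isg20 (both 0.60). Highest for Bnip3 were Ghitm, Mff and Eloc (0.84, 0.84 and 0.83), for Egln1 Adipor1, Tsnax and Vhl (0.72, 0.71 and 0.70), and for Egln3 Rnf122, Clic4 and Mad1l1 (0.56, 0.55 and 0.55). Hif1a was nearest to Zbtb41, Larp4 and Bmpr2 (0.89, 0.88 and 0.87), Epas1 to Lrp5, Pcdhgc3 and Agap1 (0.79, 0.78 and 0.76), and Pdk1 to Pgr, Gm16485 and Rims2 (0.68, 0.68 and 0.67).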

How the data were processed

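The authors aligned single-end reads of directional poly(A) libraries to GRCm39 with STAR, which counted reads per GENCODE gene; the deposited values are these raw counts. The STAR version, the GENCODE release and the strand counted are not given in the sources used here. Exon lengths and overlaps of the members were taken from a GENCODE release on GRCm39 that may differ from that of the authors. Library totals are sums over genes: the summary lines for unmapped, multimapping, no-feature and ambiguous reads (12.44%, 4.984%, 8.248% and 1.252% in the cortex, 13.33%, 4.827%, 7.593% and 1.225% in the hippocampus) were left out. No use was made of 1 cortex and 2 hippocampus columns, which matched no library with a group. Of 134 libraries with a group, 65 cortex and 63 hippocampus libraries were used. CPM was scaled to the reads in genes. Groups were compared within a tissue by edgeR 4.0.16 (R 4.3.3, limma 3.58.1): TMM scaling, filterByExpr (minimum count 10, minimum total 15) and the quasi-likelihood test, with Benjamini-Hochberg adjustment over all genes tested and a threshold of 0.05. As in the methods of the study, all groups of a genotype and tissue entered 1 model for RSD and minocycline; genotypes were compared in a model of all groups of a tissue. DESeq2 1.42.0 was an alternative, as were RLE scaling, no filter, the groups compared alone, number series, and libraries left out. Scripts were tested on simulated data. The rule named all 10 members and, for likeness, 3 genes each above a mean log2 CPM of 1 (prior count 2). From the other lists (HIF partners and regulators; HIF targets of glycolysis, of stress and of vessels; markers of astrocytes, choroid plexus, endothelial cells, erythroid cells, microglia, neurons, oligodendrocytes and pericytes; glucocorticoid-induced genes) called genes were named. The members and lists were chosen with earlier results of these data known. Of the gene rows, 5111 had no symbol. RSD was given by cage, so cage-mates shared an aggressor and its days; the labels do not say which mice shared a cage, and p-values treat each mouse as independent. Pairing of tissues by mouse came from the labels: the correlation of a mouse's cortex and hippocampus deviations from its group means over 62 mice ranged over the members from 0.167 (Epas1) to 0.928 (Hif3a), with a median of 0.443.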

Additional observations from a re-analysis of the deposited data

Results flagged for a closer look

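Of 60 sets of member values in groups of 4 to 10 mice, 2 held a mouse far from the rest, where chance flags about 1 in 20. Adm in the cortex of SS + RSD mouse 5354 was at 5.20 CPM, with the next mouse at 4.12 CPM. Bnip3 in the cortex of SS mouse 5353 was at 126 CPM, with the next at 106 CPM.

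The single AA + minocycline mouse entered no comparison, and 5 of its 20 member values lay above every AA mouse. In the cortex these were Vegfa at 136 CPM (highest AA mouse 101), Pdk1 at 92.0 CPM (85.2) and Hif1a at 65.4 CPM (64.1), and in the hippocampus Vegfa at 122 CPM (87.5) and Pdk1 at 67.9 CPM (65.3). With 1 mouse there is no replicate check, and the share of all genes above every AA mouse was not counted. This mouse was of series C, while the AA mice were of series A and B. The AA + RSD + minocycline mice of series C had cortical Hif1a at 66.6 to 72.0 CPM and cortical Pdk1 at 84.4 to 88.5 CPM. Their hippocampal Pdk1, at 59.9 to 60.9 CPM, lay below the highest AA mouse. The part of number series in these values was not tested.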

How the results depend on the processing

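Over 622 alternative values, counts of called members were within 1.5 times the main count in 220 and not in 39; of the single-gene values 308 kept direction and side of the threshold, 37 lost it, 12 gained it and 6 turned direction, and the causes were not tested. The main counts were 2 (cortex) and 1 (hippocampus) for SS against AA, 1 and 0 for SS + RSD against SS, 2 and 1 for SS + RSD + minocycline against SS + RSD, and 0 for the others named here. For SS against AA, series A alone, with 2 SS mice, gave 0 in both tissues and series B alone gave 0 in the hippocampus. For SS + RSD against SS in the cortex, the count was 2 with the groups compared alone and 0 with no filter, within series A or with series as a term; in the hippocampus it was 1 with the groups compared alone or by DESeq2. For SS + RSD + minocycline against SS + RSD in the cortex it was 1 with the groups compared alone, with no filter or without mice 5844, 5853, 7078 and 9631, and 0 with series as a term; in the hippocampus it was 2 by DESeq2 and 0 with no filter, with series as a term or with the identical libraries kept under both labels. Leaving out SS + RSD mice in turn gave 0 to 1 in both tissues of both comparisons. With mouse 9674 under its labels, SS + RSD against AA + RSD gave 1 in the cortex (Adm, 1.18) and AA + RSD + minocycline against AA + RSD gave 1; without the 4 doubted mice SS + RSD against AA + RSD gave 1 in the hippocampus. Series B alone gave 2 in the cortex for SS + minocycline against SS (Vegfa -0.72, Bnip3 0.41) and 2 for SS + RSD + minocycline against SS + minocycline (Bnip3 -0.37, Hif1a 0.43). Both fits held 2 SS + minocycline mice, and the share of all genes called in them is not given here, so these counts cannot be weighed.

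The 6 values that turned direction were all of Hif3a: for SS + RSD against SS 0.25 in the cortex and 0.28 in the hippocampus within series A, and 0.27 and 0.25 with series as a term; for SS + RSD + minocycline against SS + RSD -0.32 and -0.52 with series as a term. Dropping the replicate block from the tissue comparison gave 5 called members in place of 6. The comparison of series B with A in control mice, with and without mice 5844 and 9631, was added after the data were seen. So were the counts of genes within 10 Mb of Hbb-bs and the fits without mouse 9851. The differences between tissues were not run without the filter on low counts. Adm had 12 reads in the hippocampus library with the fewest (AA + RSD), and fewer than 5 mice in AA + RSD, AA + minocycline and SS + minocycline limit what those groups can show.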
